A study of Mus musculus with 5 samples.

Results

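The 5 chemokine genes described here are Ccl5, Ccl4, Ccl3, Xcl1 and Cxcl10, measured in single T cells sorted from the mouse brain. They were chosen by name with their levels in these cells already known. They are the 5 of 34 chemokine ligand genes on a list of ligands that had a transcript tag in 10 or more cells; 25 of the 34 had none, and 4 had one in 1 to 9 cells. A cell was kept if its well was recorded as holding 1 cell, had 400 or more unique molecular identifiers (UMIs, each standing for 1 captured RNA molecule) outside the spike-in RNAs, and had at most 30% of them on mitochondrial genes. Of 1900 wells with 1 cell, 1482 were kept. The other 418 and 20 wells without a cell served as background.

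Cells came from 5 mice of the strain Grl1loxP/loxP, whose glucocorticoid receptor alleles are flanked by loxP sites. TAT-CRE 207, 208 and 215 (18, 18 and 19 weeks old) received TAT-CRE, a Cre recombinase that enters cells, into the brain ventricles. PBS 216 and 218 (19 and 16 weeks old), labelled Sham, received buffer. The design aimed at a knockdown of the receptor on the choroid plexus. All 5 mice were then foot-shocked on 2 days (14 shocks of 1 mA, then 5 of 0.7 mA), so no unstressed mouse is among them. Cells with the surface phenotype CD45+CD11b-TCRβ+ were sorted on day 14 from brain parenchyma without choroid plexus. Each library was taken as 1 mouse, and the labels do not say whether animals were pooled.

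The kept cells numbered 311, 303 and 298 in TAT-CRE 207, 208 and 215, against 296 and 274 in PBS 216 and 218. The median cell held 993 UMIs in TAT-CRE 208, the shallowest library, and 2660 in PBS 218, the deepest. TAT-CRE 208 stood apart, with 28.3% of its UMIs on ribosomal RNA genes against 43.9% to 48.0% in the other mice. PBS 218 stood apart too: 102 of its wells with 1 cell had under 400 UMIs, against 15 to 48 in the other mice, and 69 had under 100, against 6 to 8. Only 4 of its wells were left out for mitochondrial UMIs, against 29 to 60. A UMI of at least 1 of 9 T cell markers was present in 93% of cells. Each library had its own pool barcode and amplification batch, so batch and mouse cannot be told apart, and all 384 well barcodes recur in the 5 libraries.

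Chemokines are small secreted proteins that guide leukocytes along gradients by binding receptors on their surface. They are classed by the spacing of their first cysteines: the CC class has 2 side by side, the CXC class has 1 residue between them, and the C class lacks 1 of the usual pair. Effector and memory CD8 T cells store or rapidly release CCL5, CCL4, CCL3 and XCL1. CCL3 and CCL5 act through CCR1, among other receptors. XCL1 attracts dendritic cells that bear XCR1. CXCL10, a ligand of CXCR3, is induced by interferons in many cell types and draws activated T cells.

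The class of a gene is visible in its coding sequence around the cysteine codons that define it, which need not be the first there. The stretches below, of 10 codons each, were read from GENCODE M21 transcripts (GRCm38), 5′ to 3′, with the cysteine codons that define the class in capitals.
Ccl5: accactcccTGCTGCtttgcctacctctcc
Ccl4: cccacttccTGCTGTttctcttacacctcc
Xcl1: gagagtagcTGTgtgaacttacaaacccag
Cxcl10: acggtccgcTGCaacTGCatccatatcgat
In these stretches Ccl5 and Ccl4 carry 2 adjacent cysteine codons, Cxcl10 has 1 codon between them, and Xcl1 has a single one. The Xcl1 stretch spans codons 29 to 38. Cysteine codons near the start of the Xcl1 coding sequence were left out of the search, and it holds 4 cysteine codons in all.

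On mm10, Ccl5 (ENSMUSG00000035042.2) lies on chromosome 11 from 83525778 to 83530518 on the minus strand. Ccl3 (chromosome 11, 83647844 to 83649355, minus strand) lies 117.3 kb further on. Ccl4 (chromosome 11, 83662584 to 83664683, plus strand) lies 13.2 kb beyond Ccl3. The coding sequences of Ccl3 and Ccl4 are 69.6% identical, the closest of the 10 pairs, and how reads shared by near-identical stretches were assigned is not given in the sources used here. Xcl1 is on chromosome 1 (164931644 to 164935527, minus strand) and Cxcl10 on chromosome 5 (92346638 to 92348889, minus strand). Each overlaps a gene on the other strand, and whether counting used the strand is not given. The partner of Cxcl10, Art3, had 0 UMIs in kept cells, and that of Xcl1, Gm20743, had 1.

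Ccl5 was carried by most cells in 4 of the 5 mice, and each of the other 4 genes by few. A carrier here is a kept cell with at least 1 UMI of the gene. Ccl5 carriers numbered 247 (79.4%), 142 (46.9%) and 175 (58.7%) in TAT-CRE 207, 208 and 215. They numbered 206 (69.6%) and 160 (58.4%) in PBS 216 and 218. TAT-CRE 207 was the highest and TAT-CRE 208, the shallowest library, the lowest, and the PBS mice lay between them. Over all mice, 930 cells (62.8%, 95% Clopper-Pearson interval 60.2% to 65.2%) held 7592 Ccl5 UMIs. Such intervals cover counting error only.

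**Figure D1:**
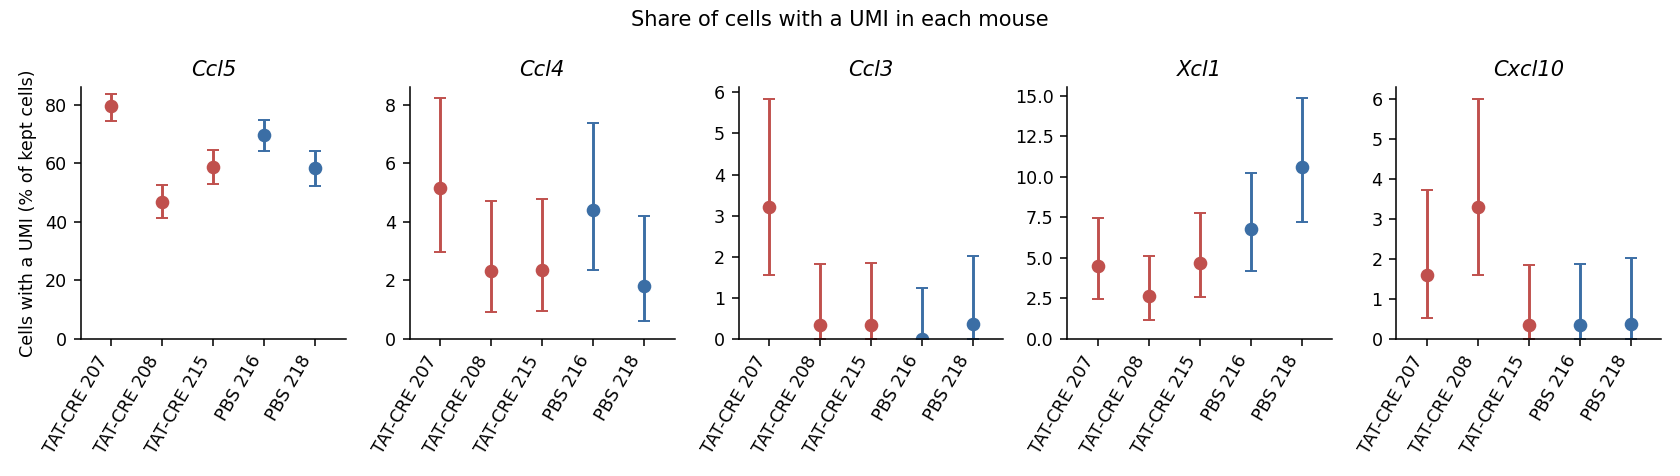
Share of kept cells with a UMI (vertical axis, percent, a scale of its own for each gene) in each of the 5 mice for the 5 chemokine genes; points are mice (red TAT-CRE, blue PBS) and bars are 95% Clopper-Pearson intervals. Ccl5 runs from 46.9% to 79.4% of cells, and for Xcl1 both PBS mice lie above the 3 TAT-CRE mice.

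The wells without a cell set the background for these shares. They held 17 to 160 UMIs each, 1095 in all, and 3 of 20 had a single Ccl5 UMI (15%, interval 3.21% to 37.9%). That is 0.150 Ccl5 UMIs per empty well against 5.12 per kept cell, and no empty well held more than 1 while 80.3% of carriers did. As a proportion of UMIs, Ccl5 stood at 2740 counts per 1000000 UMIs (CPM) in the empty wells and 2500 CPM in kept cells. Ccl4, Ccl3, Xcl1 and Cxcl10 had no UMI in an empty well, which allows a share of up to 15% at this number of wells. In 97 wells with 1 cell and under 100 UMIs, 5 had a Ccl5 UMI, 1 had an Xcl1 UMI and none had a UMI of the other 3 genes. Between 100 UMIs and the limit of 400 for keeping a cell, 47 of 126 wells (37.3%) carried Ccl5, 2 carried Xcl1 and 1 carried Ccl4.

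Cells differed widely in how many Ccl5 UMIs they held. Carriers had a mean of 9.91, 5.46 and 7.15 Ccl5 UMIs in TAT-CRE 207, 208 and 215, against 8.40 and 8.67 in PBS 216 and 218. Of the 930 carriers, 183 had 1 UMI, 108 had 2, 66 had 3, 573 had 4 or more and 272 had 10 or more, with a maximum of 75 in a cell of PBS 216. Ccl5 counts are thus not carried by a few cells: the 3 highest cells held 2.53% of its UMIs. Among 97 other genes with 700 to 1200 carriers the median was 2.96 UMIs per carrier, and 1 gene had a higher mean than the 8.16 of Ccl5.

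Ccl4, the chemokine also called MIP-1β, was found in 48 cells with 157 UMIs. Its carriers numbered 16, 7 and 7 in TAT-CRE 207, 208 and 215, against 13 and 5 in PBS 216 and 218, and its UMIs 36, 18 and 12 against 81 and 10. A single cell of PBS 216, with UMIs of Cd8 and 20 of Ccl5, held 63 of the 81. None of 686 genes with 43 to 53 carriers had a cell with as many UMIs. The second highest cell, in TAT-CRE 208, had 7. No UMI of Ccl4 was in the wells next to the cell with 63 or at its position on the other plates. Only 3.24% of kept cells carried Ccl4, and how many such wells to expect with a UMI was not worked out.

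Ccl3, or MIP-1α, was found in 13 cells with 33 UMIs. In TAT-CRE 207 it had 10 carriers and 24 UMIs, in TAT-CRE 208 and 215 it had 1 carrier each with 1 and 3 UMIs. PBS 216 had none, which allows up to 1.01% of its cells, and PBS 218 had 1 carrier with 5 UMIs. Carriers of Ccl3 were thus mostly cells of 1 mouse. Only 2 cells carried both Ccl3 and Ccl4, that is 4.17% of Ccl4 carriers and 15.4% of Ccl3 carriers.

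Xcl1, or lymphotactin, was found in 85 cells with 229 UMIs. Its carriers numbered 14, 8 and 14 in TAT-CRE 207, 208 and 215, against 20 and 29 in PBS 216 and 218. Of the 85, 40 had a single UMI and 21 had 4 or more, with a maximum of 11. Its mean of 2.69 UMIs per carrier was close to the median of 2.52 over 351 genes with 77 to 93 carriers, and 38.5% of those genes were higher. Other wells near its 3 highest cells also held Xcl1. Since 5.74% of kept cells carried Xcl1, and 10.6% in PBS 218, some such wells can hold carriers of their own. How many to expect was not worked out. For the cell with 11 UMIs in PBS 218, 4 UMIs lay at its position on the other plates and 5 in adjacent wells. For that with 11 in TAT-CRE 215, 1 UMI lay at its position on the other plates, and for that with 9 in TAT-CRE 208, 10 lay in adjacent wells.

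Cxcl10 was found in 18 cells with 85 UMIs, and these were concentrated in few cells. In TAT-CRE 207 it had 5 carriers and 32 UMIs, of which 28 lay in 1 cell. In TAT-CRE 208 it had 10 carriers and 46 UMIs, with 15, 14, 5, 3, 3 and 2 UMIs in 6 cells and 1 in each of the other 4. TAT-CRE 215 had 1 carrier with 5 UMIs, and PBS 216 and 218 had 1 carrier each with 1 UMI. The 3 highest cells held 67.1% of all Cxcl10 UMIs. The mean of 4.72 UMIs per carrier was exceeded by 3 of 1438 genes with 15 to 21 carriers, whose median was 2.28. The wells around the 3 highest cells and at their position on the other plates held no Cxcl10 UMI. Only 1.21% of kept cells carried Cxcl10, and how many such wells to expect with a UMI was not worked out.

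**Figure D2:**
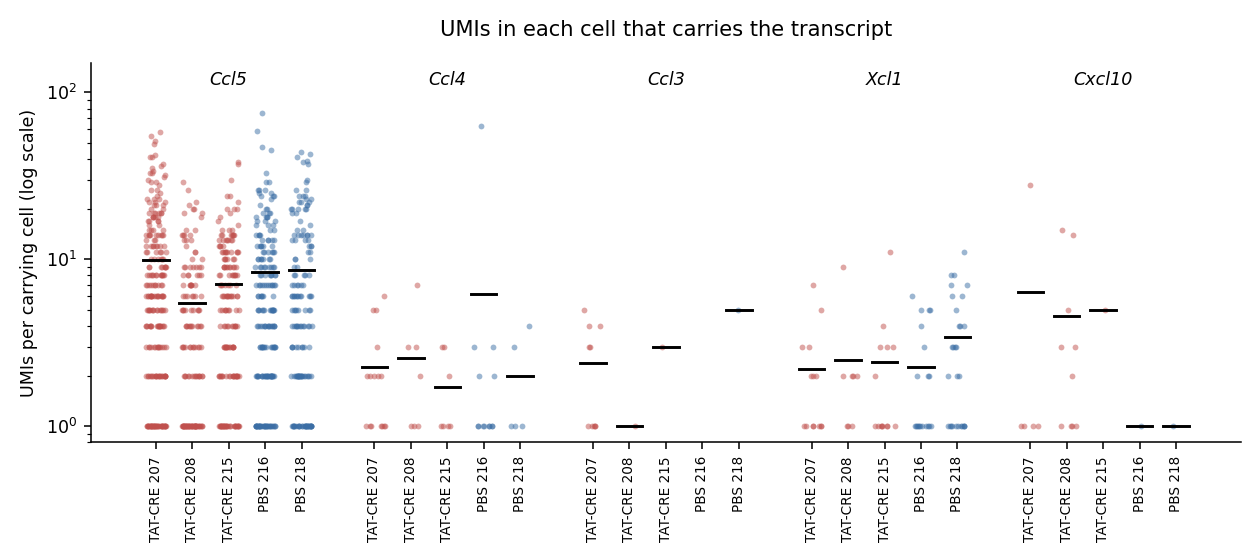
UMIs of each gene in every cell that carries it (vertical axis, log scale) by gene and mouse; each point is a cell (red TAT-CRE, blue PBS) and the black line is the mean over the carriers of that mouse. The single PBS 216 cell with 63 Ccl4 UMIs and the TAT-CRE 207 cell with 28 Cxcl10 UMIs are the highest of those genes, against 7 and 15 in the next cells.

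The carriers of the rarer genes were mostly Ccl5 carriers too. Of all cells, 528 had a UMI of none of the 5 genes, 820 of 1, 128 of 2 and 6 of 3. Ccl5 was present in 43 of 48 Ccl4 carriers (89.6%), 12 of 13 Ccl3 carriers (92.3%), 71 of 85 Xcl1 carriers (83.5%) and 13 of 18 Cxcl10 carriers (72.2%), against 62.8% of all cells. These shares are descriptive, because carriers differ in depth from other cells. The median depth was 2267 UMIs in Xcl1 carriers against 1607 in the other cells, 1869 against 1638 for Ccl4 and 1400 against 1680.5 for Cxcl10. Leaving Ccl5 aside, 7 cells carried 2 of the 4 other genes and none carried 3.

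Ccl5 was higher in cells with a Cd8 transcript than in cells with a Cd4 transcript in every mouse. The coreceptor CD8 marks cytotoxic T cells and CD4 marks helper and regulatory T cells. A UMI of Cd8a or Cd8b1 without Cd4 was found in 630 cells, of Cd4 without Cd8 in 85, of both in 25 and of neither in 742. In Cd8 cells the Ccl5 level was 4136, 2890 and 3141 CPM in TAT-CRE 207, 208 and 215, against 3624 and 2085 in PBS 216 and 218. In Cd4 cells it was 977, 338 and 792 CPM in the same TAT-CRE animals, against 1151 and 319 with PBS. The ranges of the classes did not overlap, and cells with neither coreceptor fell between the classes in all 5 mice.

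The Ccl5 level averaged 3175 ± 774 CPM in Cd8 cells and 715 ± 375 in Cd4 cells (SD, n = 5 mice). The log2 fold change within mice was 2.18 ± 0.20 (SE), with an adjusted p of 2.82e-05 by edgeR's quasi-likelihood test with the mouse as a block. Only 0.275% of the 728 genes tested (2 genes, both higher in Cd8 cells) were called at an adjusted p of 0.05. The other was Ly6c2, a surface antigen of memory CD8 T cells (log2 3.21 ± 0.48, adjusted p = 0.00437), which was not called without TAT-CRE 215 (adjusted p = 0.122). Ccl5 was called under each of 14 alternatives, with log2 fold changes of 1.45 to 3.04. Of the 728 genes tested, 40 were higher in Cd8 cells in all 5 mice.

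The order of the classes was the same at equal depth. Carriers made up 76.2% of Cd8 cells and 48.2% of Cd4 cells, with median depths of 1985.5 and 1717 UMIs. With every cell thinned to 400 UMIs, the expected share was 65.9%, 44.4%, 55.3%, 57.3% and 39.2% in Cd8 cells of TAT-CRE 207, 208 and 215 and PBS 216 and 218. In Cd4 cells it was 19.9%, 12.5%, 23.5%, 21.8% and 11.4%. The difference of 34.6 ± 6.95 percentage points (SD, n = 5) gave p = 0.062 in an exact two-sided sign-flip permutation test, the smallest p that 5 mice allow. Carriers had 10.02 Ccl5 UMIs each in Cd8 cells and 3.63 in Cd4 cells.

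**Figure D3:**
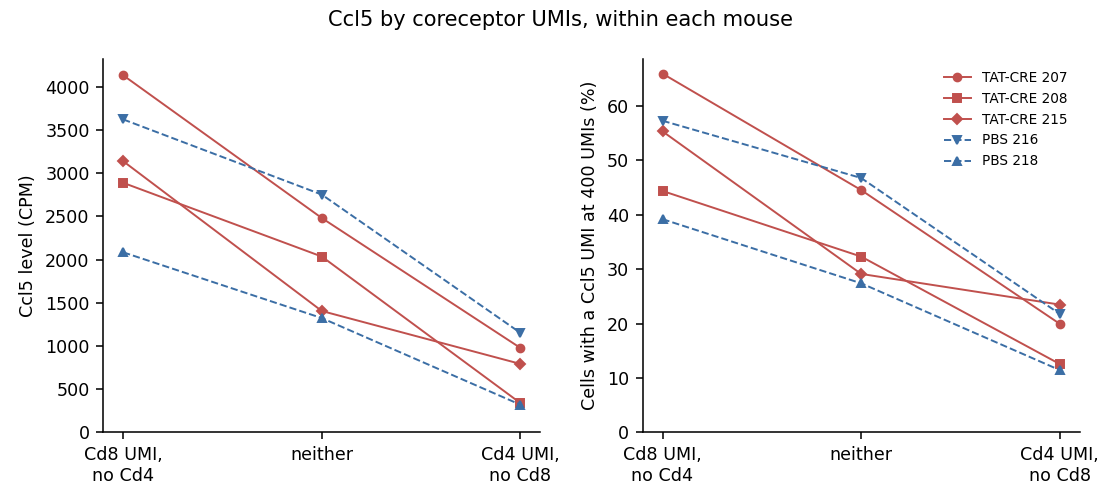
Ccl5 in cells with a Cd8 UMI, with neither coreceptor and with a Cd4 UMI: left, level in CPM; right, expected share of cells with a UMI at 400 UMIs per cell (percent). Each line joins the classes of 1 mouse (red solid TAT-CRE, blue dashed PBS), and all 5 lines fall from the Cd8 to the Cd4 class.

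The rarer genes gave few UMIs in Cd4 cells. Ccl4 was found in 27 of 630 Cd8 cells and 1 of 85 Cd4 cells, and Xcl1 in 49 and 2. Ccl3 was found in 10 Cd8 cells and Cxcl10 in 12, and neither in a Cd4 cell, which allows a share of up to 3.53% there. None of the 4 reached the count needed for the edgeR test. With cells thinned to 400 UMIs the share was higher in Cd8 cells in 4 of 5 mice for Ccl4 (exact sign-flip permutation p = 0.438), in 4 of 5 for Xcl1 (p = 0.188) and in 4 of 5 for Cxcl10 (p = 0.125). For Ccl3 it was higher in 3 of 5 mice (exact sign-flip permutation p = 0.25) and 0 in both classes in the others. The 5 genes were tested side by side and these p-values are not adjusted.

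The share with Ccl5 also differed with other transcripts of the cell. Of 18 cells with a UMI of Foxp3, the regulatory T cell factor, 5 carried Ccl5 (27.8%, Clopper-Pearson interval 9.69% to 53.5%). Only 11.1% of the 18 had 2 or more Ccl5 UMIs. The interval overlaps that of the empty wells (15%, 3.21% to 37.9%, with 1 UMI each), so these counts do not set the Foxp3 share apart from background. All 18 came from TAT-CRE 208 (3 of 7 carried Ccl5), TAT-CRE 215 (2 of 8) and PBS 218 (0 of 3), so the pooled share mixes mouse with Foxp3. The share was 42.9% against 46.9% of all cells in TAT-CRE 208, and 25% against 58.7% in TAT-CRE 215. Of 607 cells with a UMI of Cxcr6, a receptor of tissue memory T cells, or of the granzymes Gzmk, Gzma or Gzmb, 76.3% did, against 53.4% of the other 875. With cells thinned to 400 UMIs the expected shares were 54.6% and 34.1%, and the median depths were 1967 and 1455 UMIs. These classes were chosen after the counts had been seen and were not tested.

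The carriers of Ccl5 were then compared with the other cells of the same mouse for all other genes, which describes the cells that hold Ccl5. Nkg7, a protein of cytotoxic granule release, rose in carriers: its level was 648 ± 110 CPM in carriers and 254 ± 136 in the other cells (SD, n = 5), higher in 5 of 5 mice. Its log2 fold change was 1.44 ± 0.22 (SE), with an adjusted p of 0.0386 by edgeR's quasi-likelihood test. It was the only gene called, 0.0349% of 2865 genes tested, while 121 of them were higher in carriers in 5 of 5 mice. The call was lost without TAT-CRE 207 (adjusted p = 0.259), 208 (0.0831) or 215 (0.234), within Cd8 cells alone (0.220, log2 1.19), with no block for the mouse (0.0945), without TMM scaling (0.0521) and with a minimum of 200 (0.0507) or 800 UMIs (0.0589). Counts of called genes ran from 0 to 16 under the alternatives. Carriers were deeper than the other cells (median 1872.5 against 1349.5 UMIs), and the part of depth was not tested beyond the thinned fit, in which Nkg7 was called at log2 1.15 and was higher in 4 of 5 mice.

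The other cytotoxic genes stood on the same side without passing the test. All 11 of 18 genes of the cytotoxic list that could be tested had a log2 fold change above 0, with a median of 1.15 against 0.04 over all genes tested, and 1 of the 11 was called. Prf1, the pore-forming perforin, was at 155 ± 36.0 CPM in carriers and 20.1 ± 24.3 in other cells (log2 2.99 ± 0.61, edgeR adjusted p = 0.101). Gzmb, the protease granzyme B, was at 196 ± 142 and 54.8 ± 80.5 CPM (log2 2.38 ± 0.55, edgeR adjusted p = 0.178). Both were higher in carriers in 5 of 5 mice, as were 121 of the 2865 genes tested. Prf1, Gzmb and the genes of the next paragraph that were not called are named after their values were seen.

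Genes of naive and central memory cells lay on the other side. All 9 of 12 list genes tested were below 0, with a median of -0.74 and none called. Lef1 was at 87.0 ± 37.5 CPM in carriers and 208 ± 48.7 in other cells (log2 -1.30 ± 0.28, edgeR adjusted p = 0.143). Il7r, the interleukin-7 receptor, was at 274 ± 80.7 and 457 ± 95.2 CPM (log2 -0.74 ± 0.18, edgeR adjusted p = 0.178). Both were lower in carriers in 5 of 5 mice. Of the 2865 genes tested, 132 were higher in carriers in no mouse. Of the type I interferon response list, 14 of 28 genes were tested, all 14 were above 0 with a median of 0.73, and none was called. For the tissue residency list the median of 8 tested genes was 0.19, for 10 interferon-gamma inducible genes 0.08 and for 10 activation genes -0.37, with no call in any of these lists.

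**Figure D4:**
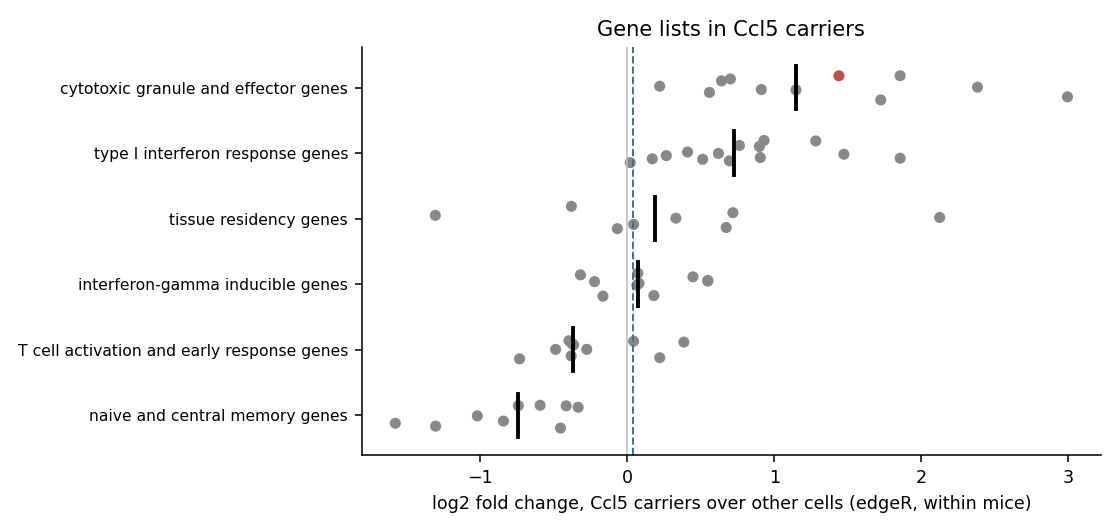
Log2 fold change of Ccl5 carriers over the other cells of the same mouse (horizontal axis, edgeR) for the tested genes of 6 lists; each point is a gene, red where the adjusted p is at most 0.05 (Nkg7 alone), black bars are list medians and the dashed blue line is the median of all genes tested. Cytotoxic genes lie to the right of 0 and naive genes to the left.

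Receptors for these chemokines were present in the same cells. Cxcr3, the receptor of CXCL10, was found in 171 cells with 341 UMIs. It stood at 109 ± 29.5 CPM in Ccl5 carriers and 120 ± 51.2 in other cells (log2 -0.08 ± 0.32, edgeR adjusted p = 0.990, higher in 3 of 5 mice). Xcr1, the receptor of XCL1, was found in 1 cell and Ccr1 in 1. Among all 19 receptor genes of the list 6 could be tested in Ccl5 carriers, with a median of 0.17 and none called.

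In Ccl4 carriers the Ccl5 level was above that of other cells in 5 of 5 mice without passing the test, and its size moved with the scaling. Ccl5 stood at log2 0.56 ± 0.26 in Ccl4 carriers relative to other cells of the same mouse (edgeR adjusted p = 0.533). The median of all 1906 genes tested was -0.69 in this comparison, and 20 of them were higher in carriers in 5 of 5 mice. Without TMM scaling the value was 1.03 (edgeR adjusted p = 0.00523) with a median of -0.25, and within Cd8 cells it was -0.07. Of the genes tested 0.157% were called (3 genes, all lower), among them Rpl22 (log2 -1.90), a ribosomal protein, and mt-Nd4 (-1.02), a subunit of respiratory complex I. None of the 3 was called with DESeq2, with no block or without TMM scaling, where Ccl5 alone was called; without TAT-CRE 215 no gene was, and without TAT-CRE 207 or 208 only 1 was. Of 11 cytotoxic genes tested the median was 0.11, and of 6 naive genes -1.65.

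Xcl1 carriers did not differ from other cells in any gene that passed the test. The share called was 0% of 2223 genes by edgeR and 0 by DESeq2, with 127 and 138 genes at an unadjusted p under 0.05. Ccl5 stood at log2 -0.13 ± 0.18 (edgeR adjusted p = 0.932) against a median of -0.39, and its sign changed under 4 alternatives. Without TAT-CRE 215 and without PBS 218, 1 and 2 genes were called. Carriers of Ccl3 and Cxcl10 were too few per mouse for this fit.

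Between the groups of mice, none of Ccl5, Ccl4, Ccl3 and Xcl1 passed a test, and Xcl1 was the only one of these 4 whose groups did not overlap. The Xcl1 level was 44.8, 55.2 and 57.8 CPM in TAT-CRE 207, 208 and 215, against 81.1 and 118 CPM in PBS 216 and 218. All 3 TAT-CRE values were under both PBS values, as was the case for 7.22% of the 6341 genes tested. The means were 52.6 ± 6.89 CPM (SD, n = 3) and 99.5 ± 26.1 CPM (SD, n = 2). The log2 fold change of TAT-CRE over PBS was -0.99 ± 0.39 (SE), with an adjusted p of 0.999 by edgeR's quasi-likelihood test and an unadjusted p of 0.0241. It stayed between -1.20 and -0.73 under 14 alternatives. In these summed cells, fewer carriers and less RNA per carrier were looked at separately. The share of carriers was 3.95 ± 1.14% (SD, n = 3) and 8.67 ± 2.71% (SD, n = 2), and the UMIs per carrier were 2.38 ± 0.149 (SD, n = 3) and 2.83 ± 0.823 (SD, n = 2) with overlapping ranges. The share gave p = 0.1 in an exact two-sided permutation test, the smallest p that 3 against 2 mice allow. Thinned to 400 UMIs the shares were 1.40 ± 0.245% and 3.29 ± 1.08%. PBS 218, the library with the most wells left out for low UMIs, had the highest value: without it the log2 fold change was -0.73 and the difference in share -2.81 percentage points, against -4.72 with it.

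Natural killer (NK) cells also make XCL1, although the sort for TCRβ+ cells would leave out both NK cells and gamma delta T cells. Of 9 NK markers, among them Eomes of the cytotoxic list, 3 could be tested between the groups. All 3 had log2 fold changes below 0, and none was called. The summed level of the 9 NK markers was 40.8 to 140 CPM with TAT-CRE and 189 to 294 CPM with PBS. These ranges did not overlap. Of the 6341 single genes tested, 7.22% also had every TAT-CRE mouse below both PBS mice. The summed level of 6 gamma delta T cell markers was 49.7 to 141 and 112 to 211 CPM, with overlap. Of 85 Xcl1 carriers, 16 (18.8%) had such a UMI against 9.18% of all cells. Trdc, Sox13 and Trdv4 were at 0 in these carriers, so the UMIs were of Tcrg-C1, Tcrg-C2 or Trgv2. Klra4 of the NK list and Sox13 and Trdv4 of the other were at 0 in all kept cells. Of 85 Xcl1 carriers, 14 (16.5%) had an NK marker UMI against 8.03% of all cells, and Fcer1g, Klra4, Klra8, Ncr1 and Tyrobp were at 0 in them, while 82 had a T cell marker UMI. Xcl1 carriers were deeper than other cells (median 2267 against 1607 UMIs). The endothelial (23.5% against 14.9% of all cells) and macrophage lists (12.9% against 7.42%) were also more frequent in them. The B cell (8.24% against 9.04%) and microglia lists (1.18% against 2.36%) were less frequent. The part of depth and of the NK and gamma delta markers in the Xcl1 values was not tested.

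Ccl5 and Ccl4 did not separate the groups. Ccl5 was at 3537, 2138 and 2127 CPM in TAT-CRE 207, 208 and 215 and at 3117 and 1653 CPM in PBS 216 and 218, with overlapping ranges. Its log2 fold change was 0.06 ± 0.32 (SE, edgeR adjusted p = 0.999), and the sign turned without TAT-CRE 207 (-0.29) and without PBS 218 (-0.34). Ccl4 was at 52.0, 49.7 and 20.4 CPM against 146 and 11.9 CPM, a log2 fold change of -1.05 ± 0.75 (edgeR adjusted p = 0.999). Its sign rested on the cell with 63 UMIs: without the highest cell of each gene the value was 0.78, and without PBS 216 it was 1.68. Ccl3 was at 34.7, 2.76 and 5.10 CPM against 0 and 5.96 and did not reach the count needed for the edgeR test. By edgeR the share of genes called was 0% of 6341, with 240 at an unadjusted p under 0.05, while DESeq2 called 1 gene.

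The Cxcl10 difference between the groups is given without a test, because that gene was picked for it in earlier work on these data. Its level was 46.2, 127 and 8.50 CPM in TAT-CRE 207, 208 and 215, against 1.80 and 1.19 CPM in PBS 216 and 218. All 3 TAT-CRE values were above both PBS values, as was the case for 10.3% of the genes tested. The groups held 83 and 2 UMIs, a ratio of 35.2 per UMI sequenced with an exact counting interval of 9.45 to 296. That interval is no test of the groups: it leaves out the spread between mice and takes UMIs as independent, although 3 cells held 67.1% of them. The share of carriers overlapped between the groups, at 1.61%, 3.30% and 0.336% against 0.338% and 0.365%. TAT-CRE 215 was thus close to the PBS mice in carriers and set apart from them by 1 cell with 5 UMIs. The ratio was 23.4 without the highest cell and 20.1 without TAT-CRE 208. Among cells of 800 or more UMIs it was 69.0, where the PBS mice kept 1 Cxcl10 UMI.

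The cells with 2 or more Cxcl10 UMIs also held many transcripts of the type I interferon response list, 28 genes that such interferons induce. All 8 cells with 2 or more Cxcl10 UMIs had UMIs of at least 5 of the 28 genes, against 3.07% of the 1464 cells without Cxcl10. In these 8 cells the list made up 11.2 to 41.6 UMIs per 1000 UMIs, 19.9 when pooled, against 1.71 in cells without Cxcl10. Of the 8, 6 were from TAT-CRE 208, 1 from TAT-CRE 207 and 1 from TAT-CRE 215. The 6 stood at a pooled 20.3 per 1000, against 2.78 in the cells of TAT-CRE 208 without Cxcl10. In the other mice, cells without Cxcl10 stood at 1.29 to 2.09. The 10 cells with a single Cxcl10 UMI were mixed, with 2 of 10 having 5 or more of the genes and a pooled 5.94 per 1000. Ifit1, an antiviral RNA-binding protein, had a UMI in 6 of the 8 cells and 3.42% of cells without Cxcl10. Rsad2, the antiviral enzyme viperin, had one in 4 of 8 against 0.956%, and Mx1, an antiviral GTPase, in 3 of 8 against 0.546%. These genes were named after their values were seen.

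Read from the side of the interferon genes, Cxcl10 was in a minority of such cells. Cells with 5 or more of the 28 genes numbered 21, 17 and 8 in TAT-CRE 207, 208 and 215, against 3 and 6 in PBS 216 and 218. Cxcl10 was carried by 2, 7 and 1 of these cells in the TAT-CRE animals and by none with PBS, where 0 of 6 cells in PBS 218 allows a share of up to 50%. These 10 of 55 cells (18.2%, Clopper-Pearson interval 9.08% to 30.9%) held 77 of the 85 Cxcl10 UMIs, or 90.6%. Outside them 8 of 1427 cells (0.561%) carried it, each with 1 UMI. The within-mouse difference in share was above 0 in 3 of 5 mice (12.1 ± 16.7 percentage points, SD, exact two-sided sign-flip permutation p = 0.25). With at least 8 genes required, 7 of 23 cells carried Cxcl10, and with at least 3, 12 of 194.

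**Figure D5:**
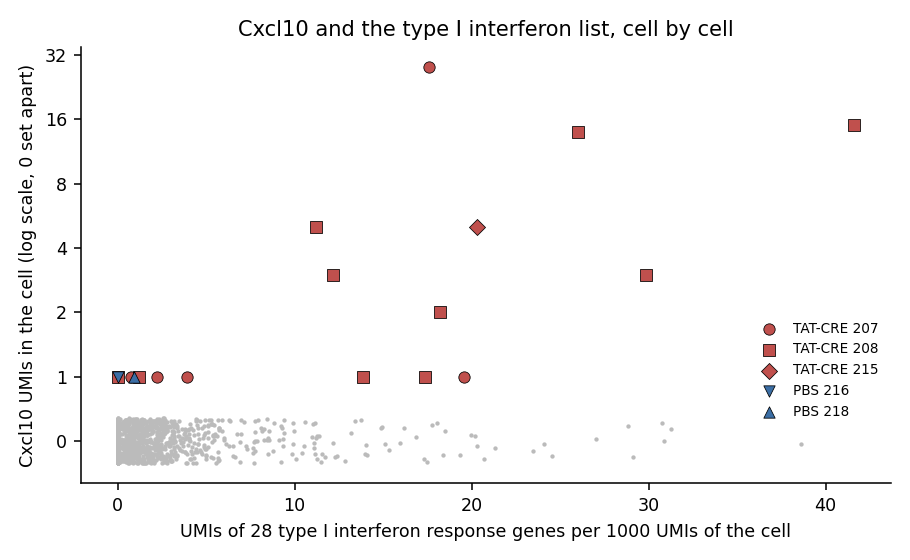
Cxcl10 UMIs in each kept cell (vertical axis, log scale, cells at 0 set apart as grey points with random spread) against UMIs of the type I interferon list per 1000 UMIs of the cell (horizontal axis). Coloured symbols are the 18 Cxcl10 carriers by mouse (red TAT-CRE, blue PBS); the 8 carriers with 2 or more UMIs lie at 11.2 per 1000 or more.

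All 18 Cxcl10 carriers had a UMI of at least 1 of the 9 T cell markers, against 93% of all kept cells, and 12 had a Cd8 UMI without Cd4. None had a UMI of the dendritic, microglia, neutrophil, astrocyte, oligodendrocyte, neuron or choroid plexus lists. These lists were rare or absent in the kept cells as a whole, so that this says little: the neutrophil and neuron genes were at 0 in every cell, and the largest share was 8.37% of cells, for the oligodendrocyte list. Of 12 macrophage or monocyte markers, Ccr2, which T cells also express, had UMIs in 1 carrier, and the other 11 were at 0. Of those 11, 7 were at 0 in every kept cell, among them Lyz2, Csf1r and Adgre1, while Cd68, C1qa, C1qc and Itgam had UMIs in other cells. Regulatory T cell markers were in 5 carriers (27.8% against 16.7% of all cells) and CD4 T cell markers in 2 (11.1% against 20.6%). Markers of NK cells were in 2 carriers, of gamma delta T cells in 3, of B cells in 1 and of endothelial cells in 1. The gamma delta markers were Tcrg-C1 and Tcrg-C2, and Sox13, Trdc, Trdv4 and Trgv2 were at 0 in the carriers. The NK marker was Eomes alone, which is also in the cytotoxic list. The B cell marker was Ighm alone and the endothelial marker Ly6c1 alone. The other genes of the NK, B cell and endothelial lists were at 0 in the carriers. The cell with 28 Cxcl10 UMIs also had 23 of Ccl5 and UMIs of Cd8.

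The promoter of Cxcl10 is shown because its transcripts sat in cells with interferon genes. The 250 bases before the start site (RefSeq, GRCm38.p6, chr5:92348890-92349139, minus strand, 5′ to 3′) carry, in capitals, a match to the consensus of the interferon-stimulated response element (GAAAGTGAAAC) and then the NF-kappaB consensus at 2 places.
Cxcl10: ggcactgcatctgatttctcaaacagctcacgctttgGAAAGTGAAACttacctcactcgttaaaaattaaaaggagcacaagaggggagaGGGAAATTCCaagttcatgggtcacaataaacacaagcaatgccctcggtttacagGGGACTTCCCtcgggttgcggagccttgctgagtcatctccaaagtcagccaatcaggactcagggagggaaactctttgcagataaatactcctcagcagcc
Positions are 213, 159 and 103 bases before the start site for the first base of each match. Both strands were searched in windows from 250 bases before to 50 after the start site, and the matches do not overlap. The response element was present in 269 of 32851 mouse promoters (0.819%) and in the promoters of 10 of 21 genes of the type I interferon list found in the table. The NF-kappaB consensus was present in 4.505% of promoters. The promoters of Ccl3 and Xcl1 held neither motif, and those of Ccl5 and Ccl4 were not analysed here.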

How the data were processed

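The authors deposited 1 table of raw UMI counts per mouse, with genes in rows and wells in columns, from a MARS-seq type of single-cell protocol per the labels' protocols. A further deposited table gives, per the file headers, a count of cells for each well. The submitters' processing notes name bcl2fastq 2.15.0.4 and mm10; for the aligner, annotation and strand the entry is: not given in the sources used here. Raw counts were summed per mouse, or per mouse and class of cells, and tested with edgeR 4.0.16 (quasi-likelihood test, TMM scaling, filterByExpr, Benjamini-Hochberg adjustment over all genes tested, threshold 0.05) in R 4.3.3. Comparisons within mice had the mouse as a block, since both sums come from the same animal, and needed 5 carriers in each of at least 3 mice. DESeq2 1.42.0 was an alternative. Single values used exact permutation tests, two-sided, in scipy 1.17.1. Thinned shares are hypergeometric expectations at 400 UMIs. The share allowed by a count of 0 is 3 divided by the number of cells or wells, not a Clopper-Pearson limit. CPM are UMIs of a gene per 1000000 UMIs of the same cells. The pipeline was tested on simulated data. Replicates are separate libraries, and in the comparison of groups p-values measure the spread between them. In comparisons within mice they measure how the within-mouse difference varies from mouse to mouse.

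Named genes were all 5 chemokine genes in each comparison, in carrier comparisons the 8 called genes of smallest p in each direction, in the coreceptor comparison the 5 called in each direction, and 4 called genes per list; other names are marked in the text. The members and the lists were chosen with earlier results of these data known. The alternatives were other limits on UMIs per cell, no mitochondrial limit, ribosomal RNA genes left out, each mouse left out, DESeq2, no low-count filter, no TMM, thinning, no block, and for carriers 2 or more UMIs or Cd8 cells only. Values were not scaled by gene length, so UMIs per carrier set beside those of other genes are a description only. Some items are not reported here.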

Additional observations from a re-analysis of the deposited data

Results flagged for a closer look

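Among wells outside the kept cells, a larger share carried Ccl5 than among the wells without a cell. Of 195 wells with 1 cell, 400 or more UMIs and over 30% mitochondrial UMIs, 109 carried it (55.9%, Clopper-Pearson interval 48.6% to 63.0%), against 3 of 20 empty wells (15%, interval 3.21% to 37.9%). In those wells 8 carried Ccl4, 7 Xcl1, 2 Cxcl10 and 1 Ccl3. Their median depth was 1046 UMIs against 40 in the empty wells, and depth alone moves such shares. As a proportion of UMIs their Ccl5 level was lower, at 2100 CPM against 2740 CPM in the empty wells, where it rests on 3 UMIs. Keeping them left Ccl5 higher in Cd8 than in Cd4 cells, at log2 2.25.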

How the results depend on the processing

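Depth limits the rare genes: Ccl3 and Cxcl10 allow no carrier fit, and 0 of 20 empty wells bounds their background at 15%. A p of 0.1 or 0.062 is the lowest these mice allow and says nothing about stability. No paired analysis was possible because TAT-CRE and PBS mice share no replicate number. Higher Ccl5 in Cd8 cells held in 14 alternatives (log2 1.45 to 3.04; no replicate block 2.06). The alternatives without the highest cells, of the Cxcl10 ratio (20.1 to 69.0) and of the interferon limits were added after seeing the data. The cause of the changes below was not tested.

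Genes called between TAT-CRE and PBS mice numbered 0, but 1 with DESeq2 and 8 with no low-count filter, and 0 to 0 with mice left out. Between Cd8 and Cd4 cells they numbered 2, but 4 with DESeq2, 57 with no filter, and 1 to 3 with mice left out. For Ccl5 carriers 1 gene was called, and the count was 14 with DESeq2, 16 with no filter, 0 without TMM, 0 with no replicate block, 0 at a minimum of 200 and 0 at 800 UMIs, 3 with no mitochondrial limit, 2 without ribosomal RNA genes, 12 when thinned, 3 for carriers with 2 or more UMIs, 0 in Cd8 cells and 0 to 7 with mice left out. For Ccl4 carriers 3 were called, and the count was 0 with DESeq2, 36 with no filter, 1 without TMM, 0 with no replicate block, 1 at 800 UMIs, 1 with no mitochondrial limit, 7 without ribosomal RNA genes, 1 in Cd8 cells and 0 to 5 with mice left out. For Xcl1 carriers 0 were called, and the count was 25 with no filter, 3 without ribosomal RNA genes, 1 when thinned, 2 for carriers with 2 or more UMIs and 0 to 2 with mice left out. The Ccl4 carriers could not be fitted after thinning or with 2 or more UMIs.

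Mice left out gave log2 fold changes of TAT-CRE over PBS of -0.34 to 0.64 for Ccl5, -1.97 to 1.68 for Ccl4 and -1.20 to -0.73 for Xcl1, and Ccl4 was at 0.78 without the highest cells. The difference in Xcl1 share was -4.72 percentage points, and -1.88 when thinned. Ccl5 in Ccl4 carriers turned to -0.34 with no filter and -0.072 in Cd8 cells. In Xcl1 carriers it turned to 0.055 with DESeq2, 0.072 without TMM, 0.024 with no mitochondrial limit and 0.079 when thinned.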

Other observations

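Ccl1, another chemokine ligand and one that acts through CCR8, had 42 UMIs in 4 cells. A single cell of TAT-CRE 215 with 5423 UMIs held 39 of them, together with 1 Ccl5 UMI and no UMI of Cd8, Cd4, Ccl3 or Ccl4. Its receptor Ccr8 was found in 15 cells with 26 UMIs. Ccl1 was singled out after its counts were seen.

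Among the chemokine receptors, Cxcr6, which keeps memory T cells in tissues, was carried by 433 cells (29.2%) and Cxcr4 by 244 (16.5%). Ccr2 was carried by 103 cells and Ccr7, a receptor of lymph node homing, by 57. Of the 19 receptor genes, 4 had no UMI in kept cells.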
